A study of Mus musculus with 17 samples.

Results

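Retinoic acid (RA) is made from vitamin A inside cells and is removed again by the same or neighbouring cells, so its level is set by enzymes on both sides. Stra6 is the membrane receptor through which retinol enters a cell, Rdh10 oxidizes retinol to retinal, and Aldh1a2 oxidizes retinal to RA. Dhrs3 returns retinal to retinol, Cyp26a1, Cyp26b1 and Cyp26c1 are cytochrome P450 enzymes that oxidize RA for removal, and Crabp1 and Crabp2 are small proteins that carry RA in the cytoplasm. Several of these genes, among them Cyp26a1, Dhrs3 and Stra6, are textbook targets of RA itself.

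The H3K27ac HiChIP loops of these 9 genes were described in mouse embryonic stem cells (mESC, R1 line) that were formed into embryoid bodies (EBs) by hanging drop and treated with 0.5 uM RA for 4 days. HiChIP joins pairs of DNA fragments that lie close together in the nucleus and keeps those marked by acetylated histone H3 lysine 27, a mark of active promoters and enhancers. The bulk group held 12 libraries of unsorted EB cells. The cluster2 group held 5 libraries, which the paper obtained by sorting cells of the same treatment for both EpCAM and CD38. All 17 libraries carry the RA treatment, and no untreated library was compared. Bulk EBs still contain the sorted cells, and a lower value in either group cannot be told apart between fewer cells with a loop, less H3K27ac at its ends and fewer contacts per cell.

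A gene's loops were those with an anchor (the DNA segment at one end of a loop) within 5 kb of one of its start sites, the TSSs of protein-coding transcripts in the mm9 annotation. This gave 754 loops of 1211657 in all, on 21 anchors at the 9 genes, of 216081 anchors. The libraries held 65178 to 241202 read pairs in bulk and 50508 to 118179 in cluster2. The groups also differ in their anchors: bulk loops used 216073 anchors and cluster2 loops 15082, of which 15074 were in both. Of the 21 anchors at the retinoid genes, 13 occurred in cluster2 loops. Where an anchor has no cluster2 loop, an absent anchor and an absent contact cannot be told apart, so each test was also run on shared anchors, meaning loops with both anchors used in both groups. Since 15074 of the 15082 cluster2 anchors are shared, this keeps nearly all cluster2 loops and removes mainly bulk ones, among them loops that are lower through an absent anchor. At the 9 genes it kept every cluster2 read pair. The calls on shared anchors are therefore conditioned on presence in cluster2, which favours higher values there, and are given as a description beside the shares over all genes, anchors or loops. The labelled sort was checked on its markers. The loop read pairs of Epcam and Cd38 together ranged from 0 to 108 CPM in bulk and from 37.7 to 109 in cluster2. CPM are read pairs scaled to a library of 1000000 after TMM, which adjusts libraries to a common set of features. Neither marker passed the test with all loops. On shared anchors Cd38 was called higher (log2 fold change 1.78, adjusted p = 0.0077). Epcam was not called there (0.27, adjusted p = 0.74), and the median gene was at 0.34. Neural marker genes were lower in cluster2 for 8 of the 9 tested (976 to 1779 CPM summed in bulk and 97.1 to 164 in cluster2). Of 10 endoderm genes 5 were higher, against 1 lower (374 to 766 and 985 to 1405). Over all genes tested, 20% were called higher and 40.9% lower. Col4a1 and Col4a2, both among the higher endoderm genes, had equal cluster2 values (256 read pairs each). Of 3 pluripotency genes tested, 2 were higher and 1 lower, and of 2 mesenchyme genes tested, 1 was lower and none higher. The part of any difference in cell makeup in the values below was not tested.

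The anchors at these genes were searched for retinoic acid response elements, the sites that RA receptors bind, because several of the genes are textbook RA targets. The search took direct repeats of the motif AGGTCA, in which the first letter may also be G and the G before T may also be T, with 1, 2 or 5 bases between them (DR1, DR2 and DR5), in any pairing and on both strands. The Cyp26a1 promoter is shown first, as the 120 bases before its start in the RefSeq table (build GRCm38.p6, chr19:37697688-37697807, + strand). It is followed by mm9 windows with 10 bases on each side of the match, at Cyp26a1 (chr19:37770389-37770425), Dhrs3 (chr4:144488268-144488304), a loop partner of Dhrs3 inside Vps13d (chr4:144624703-144624739) and Crabp2 (chr3:87751437-87751470). All are written 5′ to 3′ on the + strand with the repeat in capitals.
Cyp26a1 promoter DR5: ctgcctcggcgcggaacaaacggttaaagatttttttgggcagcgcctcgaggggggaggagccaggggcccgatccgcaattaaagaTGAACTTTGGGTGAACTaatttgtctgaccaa
Cyp26a1 upstream DR5: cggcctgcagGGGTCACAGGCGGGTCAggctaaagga
Dhrs3 intronic DR5: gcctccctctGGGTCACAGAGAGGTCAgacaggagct
Vps13d intronic DR5: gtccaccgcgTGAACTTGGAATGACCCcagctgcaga
Crabp2 upstream DR2: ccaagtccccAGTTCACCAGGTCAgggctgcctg

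The promoter repeat of Cyp26a1 lies on the − strand, from base -32 to base -16 before the start. The upstream repeat lies on the + strand 1899 bp from the TSS, between genes, in the same anchor (chr19:37763873-37773321). A DR5 was present in 0.0974% of the 32851 promoters of the table, each 300 bases long, and Cyp26a1 was the only one with it among the 7 retinoid genes matched there by symbol (all but Rdh10 and Crabp2). The Dhrs3 repeat is in an intron, 5214 bp from the nearest Dhrs3 TSS and inside the promoter anchor (chr4:144478950-144488973). A DR5 was found in 2.62% of the 267 anchors within 10% of the width of the Cyp26a1 anchor, and in 3.17% of the 189 anchors as wide as that of Dhrs3. The Crabp2 DR2 lies 1141 bp from the TSS, and 3.16% of 32106 anchors of that width held a DR2. Of the 21 anchors at the retinoid genes 5 held a match, where 2.16% of all anchors held a DR1, 2.82% a DR2 and 1.28% a DR5. The remaining 2 were a DR1 at Crabp1 (in 1.37% of anchors of that width) and a DR2 at Cyp26a1 (4.08%), both in anchors with no cluster2 loop. None of the anchors of Stra6, Rdh10, Aldh1a2 or Cyp26b1 held a match, which says only that these letters do not occur in those segments. Of 14 partner anchors of the named loops, 1 held a match, the Vps13d segment printed above (1.4% of 35863 anchors of that width held a DR5).

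Read pairs at the 9 genes were compared between cluster2 and bulk to see which steps of RA handling differ in looping between the sorted cells and the whole EB. Stra6 was higher in cluster2, Dhrs3, Crabp1 and Crabp2 were lower, and the other five genes passed no threshold in the fit on all anchors. Over all 13712 genes tested, 20% were called higher and 40.9% lower, so the share of lower calls among the 9 genes (3 genes) was near that of all genes. The median gene had a log2 fold change of -0.43, and scaling by library size alone moved this median to 1.38, so each change is given relative to the median gene as well. Per kb of anchor, the bulk order was Crabp2 (32.5 CPM per kb), Dhrs3 (31.6), Rdh10 (25.3), Cyp26b1 (23.9), Cyp26c1 (12), Cyp26a1 (11.9), Crabp1 (9.61), Stra6 (8.74) and Aldh1a2 (3.15), while Stra6 led in cluster2, and differences between genes were not tested. On shared anchors 7 of the genes could be tested: Stra6, Cyp26a1, Cyp26c1 and Rdh10 were higher, and Crabp2 and Dhrs3 were lower, against 21.6% and 11% of all 9749 genes. The anchors kept are those with cluster2 loops, and 3 of these 4 higher genes (Cyp26a1, Cyp26c1 and Rdh10) kept 22, 22 and 16 bulk read pairs.

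**Figure D1:**
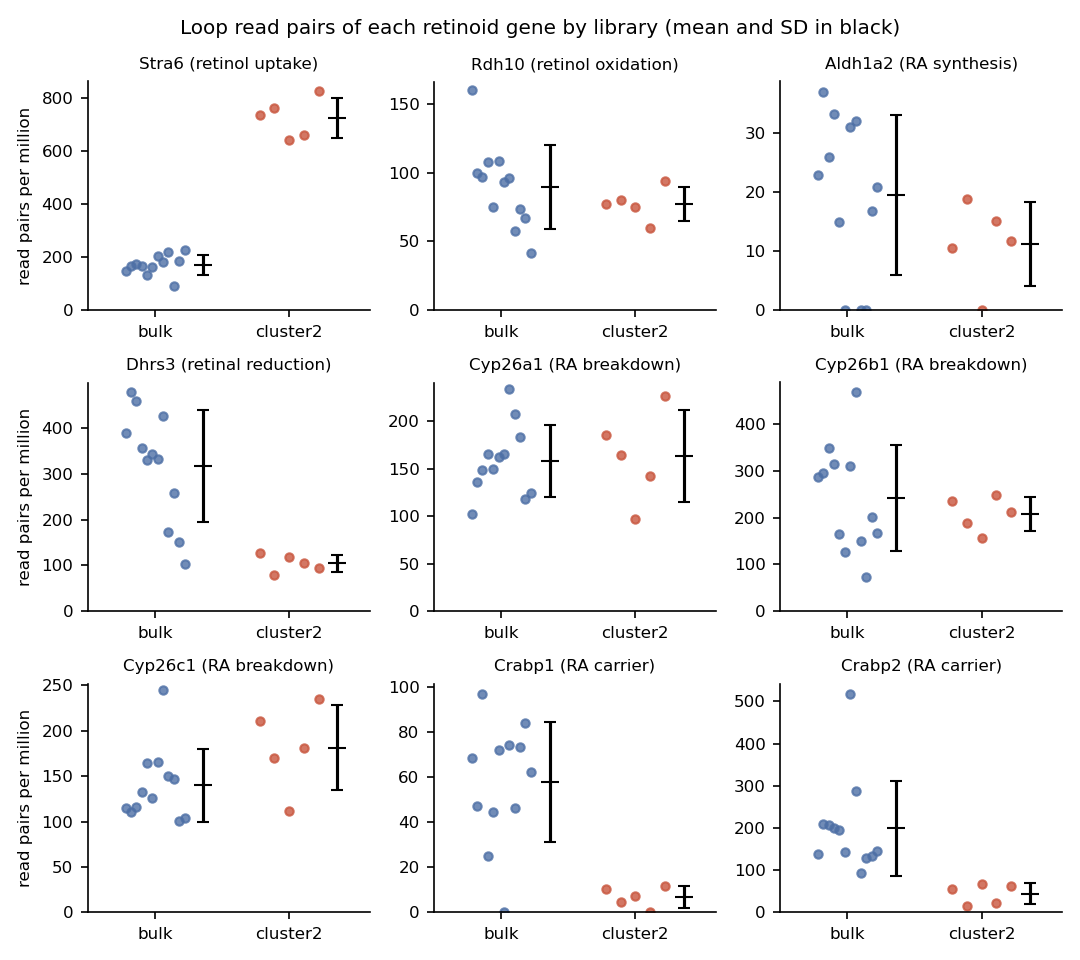
Loop CPM of each gene (vertical axis, TMM-scaled) in each of the 12 bulk (blue) and 5 cluster2 (red) libraries, with mean and SD in black. The Stra6 values of cluster2 (642 to 826) lie above all bulk values (91.9 to 228), those of Crabp2 (14.1 to 67.2) lie below them (92.4 to 517), and the other genes overlap between groups. Under library size alone no gene is called lower and Dhrs3 changes sign.

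Stra6, the retinol receptor, had 193 read pairs in bulk and 757 in cluster2. The cluster2 libraries 1 to 5 held 736, 763, 642, 661 and 826 CPM. Bulk values ran from 91.9 through a median of 171 to 228. Every cluster2 library was above every bulk library, a pattern found for 6.66% of all genes tested. The log2 fold change was 2.07 ± 0.17 (SE, adjusted p = 1.4e-12, edgeR), or 2.5 above the median gene. On shared anchors the log2 fold change was 2.09, 1.74 above the median gene there. Per kb of anchor sequence in the group's own loops, Stra6 had 67.2 CPM per kb in cluster2, the highest of the 9 genes, and 8.74 in bulk. The cluster2 value is over 10802 bp and the bulk value over 19712 bp, so the groups cannot be compared by them.

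The Stra6 read pairs of cluster2 lay mostly in short loops over the gene and its upstream neighbour Ccdc33, which overlaps Stra6 on the opposite strand. They fell on 3 segments: chr9:57971997-57974451 (inside the gene as annotated, 2444 bp from a TSS), chr9:57978459-57984227 (over the main TSSs and an exon) and chr9:57987116-57989696 (downstream of them). The loop between the first and second segments spanned 8119 bp and held 25, 19, 9, 12 and 21 read pairs in cluster2. In bulk it held 2 read pairs in all, 1 in each of 2 libraries. Its log2 fold change was 4.51 ± 0.60 (adjusted p = 2.9e-12). The loop between the second and the last of these segments spanned 7063 bp and had 20, 23, 13, 13 and 28 read pairs in cluster2, against 9 in 5 bulk libraries (log2 fold change 2.95 ± 0.46, adjusted p = 2.4e-09). From the second segment to the Ccdc33 start (chr9:57965843-57967471) there were 66 cluster2 and 5 bulk read pairs (log2 fold change 3.09 ± 0.54, adjusted p = 9.0e-08). Of 11 Stra6 loops tested, 10 were higher in cluster2 and none was lower, beside 38.1% higher and 22.4% lower among all 5369 loops tested. These 11 loops had 2 to 9 bulk and 18 to 97 cluster2 read pairs. They reached the minimum of 20 read pairs mainly through cluster2, which favours higher calls, so these counts are a description only. The 3 anchors at the upstream Stra6 start sites, between 57918216 and 57933696 on chr9, occurred in no cluster2 loop.

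Rdh10, the enzyme that begins RA synthesis from retinol, had 105 bulk and 81 cluster2 read pairs. Its cluster2 values of 77.1, 80.0, 74.7, 60.1 and 94.0 CPM lay inside the bulk range of 41.5 to 160 (median 94.4). The log2 fold change was -0.24 with a 95% interval of -0.75 to 0.28 and turned positive under library size alone (1.6), thinning and shared anchors. On shared anchors, which kept all 81 cluster2 but 16 of the 105 bulk read pairs, the log2 fold change was 1.14 ± 0.41 (adjusted p = 0.021). Its single anchor, chr1:16093514-16097054, also holds the start site of Rpl7, a ribosomal protein gene, and read pairs of the 2 genes cannot be told apart. The cluster2 read pairs went to few places: to the start of 4930444P10Rik 12523 bp upstream and to segments downstream, toward Stau2. The loop to chr1:16224193-16227805, in an intron of Stau2 and 130715 bp away, held 7, 2, 3, 2 and 7 read pairs in cluster2 and 1 in bulk (log2 fold change 3.13 ± 0.76, adjusted p = 0.00012). The upstream loop held 18 and 4 read pairs (1.55 ± 0.64, adjusted p = 0.029). Both loops reached the minimum of 20 read pairs mainly through cluster2, which favours higher calls, so their values are a description only. Relative to the median of all loops tested (0.78), the Stau2 loop was at 2.35 and the upstream loop at 0.76.

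Aldh1a2, the RA-producing dehydrogenase, was the least covered gene, with 26 read pairs in bulk and 12 in cluster2. Its values ran from 0 to 36.8 CPM in bulk and from 0 to 18.8 in cluster2, with a log2 fold change of -0.87 (95% interval -1.98 to 0.24), which passed no threshold. None of its 29 loops had enough read pairs for a test. All of its 12 cluster2 read pairs were in loops over 100 kb, of which 3 joined the promoter anchor to the Grinl1a start 269483 bp downstream.

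Dhrs3, which turns retinal back to retinol, had the most bulk read pairs of the 9 genes, 395, against 107 in cluster2. Cluster2 libraries 1 to 5 had 126, 80.0, 119, 105 and 94.0 CPM, and bulk ran from 104 through a median of 337 to 478. The ranges overlapped, since the lowest bulk library lay below 3 of the cluster2 libraries. The log2 fold change was -1.64 ± 0.26 (adjusted p = 1.6e-06), which is -1.21 relative to the median gene, and -1.17 relative to it under library size alone, where the log2 fold change itself turns to 0.21. On shared anchors, with 88 bulk read pairs left, it was -0.84 ± 0.27 (adjusted p = 0.0079).

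The loops of Dhrs3 ran almost entirely downstream, over its own introns and into Vps13d. Of read pairs whose partner lay over 20 kb from the first TSS, 97.5% of 362 in bulk and 90.7% of 107 in cluster2 were downstream. The strongest partner was chr4:144587684-144591052, an intronic segment of Vps13d 105406 bp away, with 39 bulk read pairs in 10 libraries and 10, 6, 7, 5 and 6 in cluster2. This loop passed no threshold (log2 fold change -0.52 ± 0.41, adjusted p = 0.26). The loop to chr4:144623178-144626015, 140635 bp away and holding the Vps13d DR5 printed above, had 27 bulk read pairs in 6 libraries and 15 in cluster2. It was lower by the fit (-1.13 ± 0.49, adjusted p = 0.039) but not on shared anchors (-0.85, adjusted p = 0.12). Both of these distal segments were lower in cluster2 over all their loops, with log2 fold changes of -2.89 and -3.12. The median of all anchors tested was lower still, at -4.38. On shared anchors the 2 segments were at -1.65 and -2.50, where the median anchor was at 0.53. The loop to chr4:144502174-144504729, an intronic segment 19490 bp away, went the other way, with 10, 8, 4, 4 and 4 read pairs in cluster2 and 7 in 3 bulk libraries (1.61 ± 0.57, adjusted p = 0.010). No cluster2 library lay above all bulk libraries for this loop. This loop reached the minimum for a test mainly through cluster2, which favours a higher call. Relative to the median of all loops tested (0.78), it was at 0.82, and the loops to the Vps13d segments were at -1.31 and -1.91. The nearest partner, chr4:144493010-144497563, had 31 bulk read pairs and is an anchor with no cluster2 loop.

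**Figure D2:**
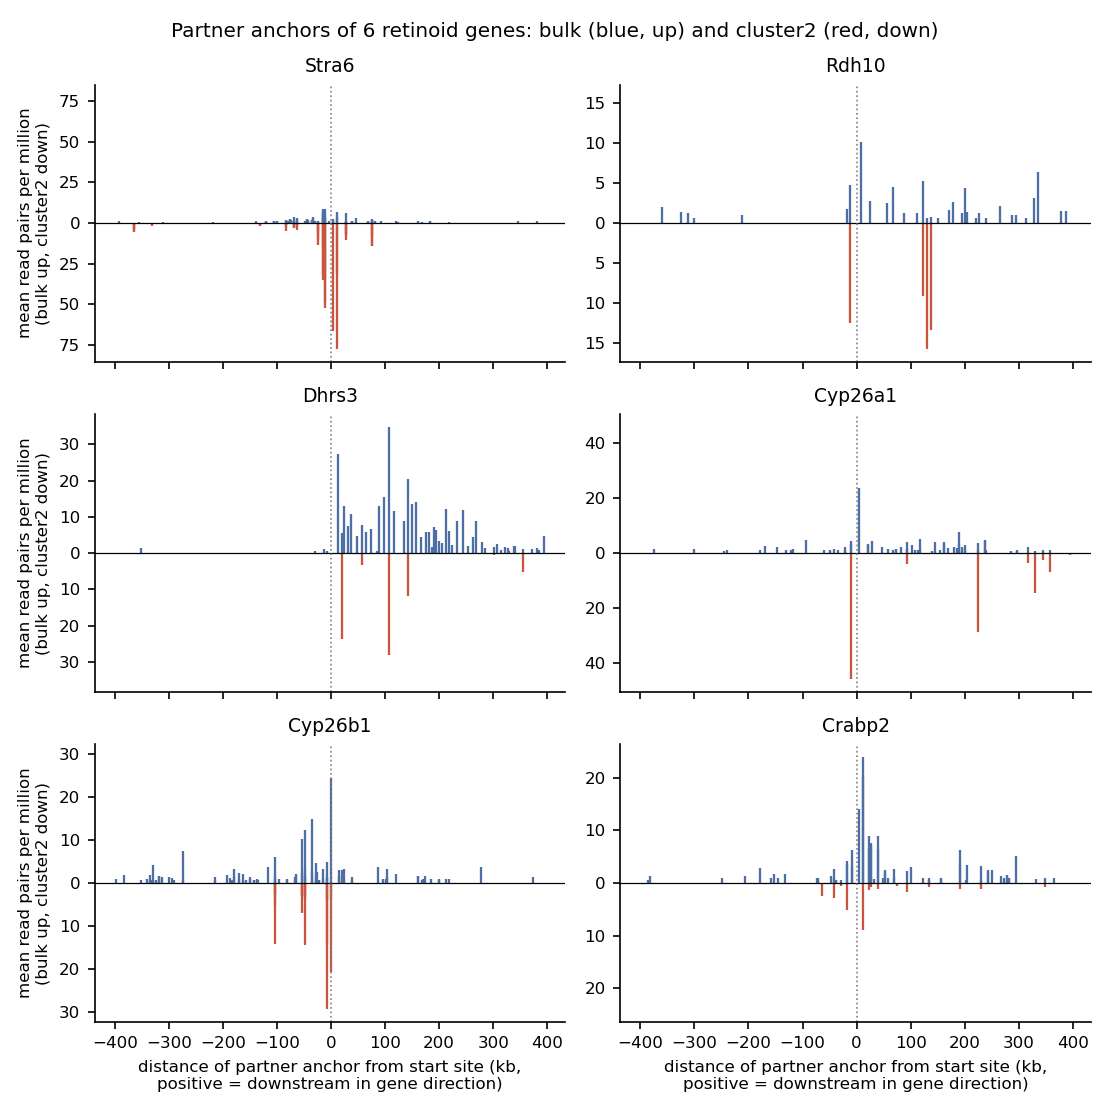
Mean CPM of each loop (vertical axis, bulk upward in blue, cluster2 downward in red) by the distance of its partner anchor from the gene's start site, up to 400 kb, for 6 of the genes. For Stra6 the reference is the first of its downstream group of TSSs. Bulk partners of Dhrs3 form a dense row downstream of the gene, of which cluster2 holds few, while the cluster2 lines of Stra6 stand within the gene and at Ccdc33.

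Cyp26a1 and Cyp26c1, both of which break down RA, lie side by side on chr19 and share the anchor chr19:37763873-37773321, so most of their read pairs are the same ones. Cyp26a1 had 176 bulk and 178 cluster2 read pairs, and Cyp26c1 had 154 and 195. For Cyp26a1 the cluster2 libraries held 186, 165, 97.1, 143 and 227 CPM, and bulk ran from 103 through 156 to 234. The groups overlapped, and with all anchors the log2 fold change was 0.08 for Cyp26a1 (95% interval -0.36 to 0.51), a sign that turned in some settings, and 0.40 for Cyp26c1 (-0.04 to 0.83). On shared anchors the log2 fold changes were 1.78 ± 0.33 (adjusted p = 2.2e-06) and 1.92 ± 0.33 (adjusted p = 1.7e-07). All cluster2 read pairs of both genes remained there, but only 22 bulk read pairs of either, 12.5% of those of Cyp26a1 and 14.3% of those of Cyp26c1.

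The joint anchor, which holds both Cyp26a1 DR5 sequences, made 3 loops that were higher in cluster2. The loop to the Cyp26c1 anchor (chr19:37760875-37763028), 6645 bp away, held 19, 9, 6, 8 and 19 read pairs in cluster2 and 4 in bulk (3.25 ± 0.57, adjusted p = 9.2e-08). No bulk library held more than 1 read pair of this loop, which reached the minimum for a test through its 61 cluster2 read pairs. A loop of 227379 bp reached chr19:37994772-37997180, an exon-containing segment of Myof, with 5, 8, 3, 5 and 16 cluster2 and 4 bulk read pairs (2.57 ± 0.61, adjusted p = 9.5e-05). A longer one of 334168 bp reached chr19:38099095-38106436, intronic in Myof and 11631 bp from its start site, with 20 cluster2 read pairs and 1 in bulk (3.06 ± 0.75, adjusted p = 0.00018). Both Myof loops also reached the minimum for a test mainly through cluster2, which favours higher calls, so their values are a description only. Over all their loops, which include those just named, the Myof segments were higher in cluster2 by 1.77 and 2.66 on the log2 scale. The first segment had 73 cluster2 read pairs in all, 37 of them from the loop above. Among all anchors tested, 10.5% were higher and the median was -4.38. In bulk, the loop with the most read pairs at the joint anchor ran 8823 bp downstream to chr19:37775508-37779333 (27 read pairs in 9 libraries), an anchor that no cluster2 loop uses.

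Cyp26b1, a further RA hydroxylase, lies on chr6 on the − strand and had 302 bulk and 215 cluster2 read pairs. Its cluster2 values of 235, 188, 157, 248 and 211 CPM were inside the bulk range of 73.5 to 468 (median 244). The log2 fold change was -0.29 (95% interval -0.77 to 0.20) with all anchors and -0.07 (-0.54 to 0.39) on shared anchors. Its strongest loop in bulk joined the anchors of its 2 start sites (chr6:84536578-84541818 and chr6:84543486-84545449), with 27 bulk and 29 cluster2 read pairs (-0.28 ± 0.44, adjusted p = 0.59). The loop from the first of these to chr6:84550641-84553176, between genes and 6901 bp from the nearest Cyp26b1 TSS, was higher in cluster2, with 12, 6, 5, 5 and 10 read pairs against 6 in bulk (2.11 ± 0.57, adjusted p = 0.00056). From the second anchor, the loop to the same segment held 19 and 2 read pairs (2.40 ± 0.70, adjusted p = 0.0016). Both loops to this segment reached the minimum for a test mainly through cluster2, which favours higher calls, so their values are a description only. More distant partners were mostly upstream of the gene: only 27.8% of the bulk and 11.8% of the cluster2 read pairs past 20 kb were downstream. The loops of such length that could be tested ended inside Exoc6b.

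Both carriers were lower in cluster2. Crabp2, which brings RA to its nuclear receptors, had 236 bulk and 47 cluster2 read pairs. Its cluster2 libraries held 56.1, 14.1, 67.2, 22.5 and 62.6 CPM, and bulk ran from 92.4 through a median of 170 to 517. All 5 cluster2 libraries were below all bulk libraries, which 12.6% of all genes tested also showed. The log2 fold change was -2.16 ± 0.34 (adjusted p = 1.7e-06), -1.73 relative to the median gene, and -1.97 ± 0.31 on shared anchors (adjusted p = 5.0e-09). Under library size alone it was -0.29 and passed no threshold, while its value relative to the median gene stayed at -1.67.

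The Crabp2 loops with the most read pairs ended at chr3:87761480-87765614, a segment between genes downstream of Crabp2, 8892 bp from its TSS. From the promoter anchor (chr3:87750152-87753212, with the DR2 printed above) it received 23 bulk read pairs in 7 libraries and 1, 2, 1, 2 and 5 in cluster2 (-1.34 ± 0.54, adjusted p = 0.024, and 0.069 on shared anchors). The other Crabp2 anchor, chr3:87755266-87758358, also shared 23 bulk read pairs with it and occurred in no cluster2 loop. The downstream segment itself did not pass the test over all its loops (214 bulk and 152 cluster2 read pairs, log2 fold change -0.12, adjusted p = 0.69).

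Crabp1 had 63 bulk and 8 cluster2 read pairs. Bulk values ran from 0 through a median of 65.4 to 96.9 CPM and those of cluster2 from 0 to 11.7, overlapping through 1 bulk library at 0. The log2 fold change was -2.73 ± 0.52 (adjusted p = 2.8e-05), -2.30 relative to the median gene. Under library size alone it was -1.0 and was not called. Of its 3 anchors 2 had no cluster2 loop, and too few read pairs remained on shared anchors for a test.

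**Figure D3:**
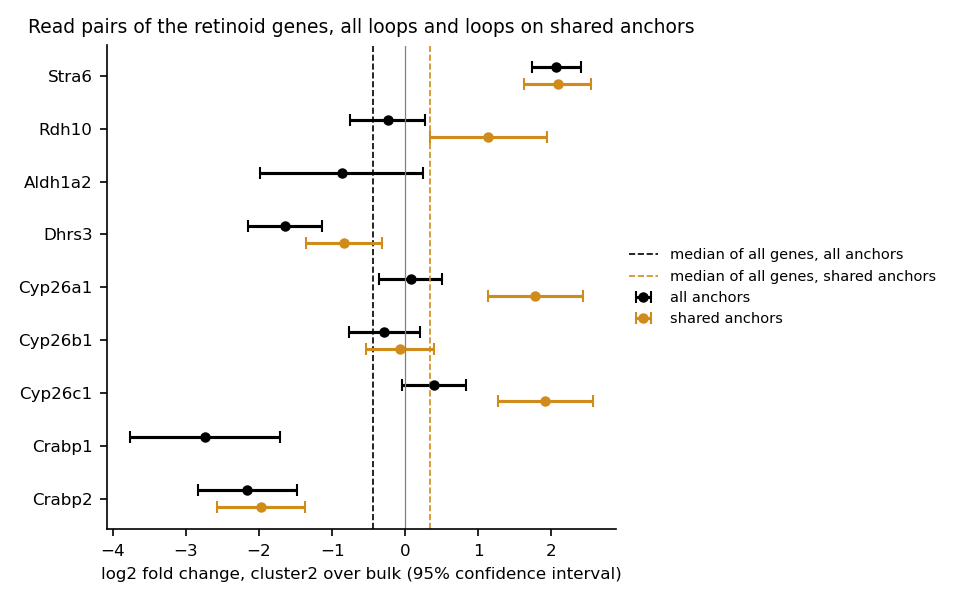
Log2 fold change of cluster2 over bulk (horizontal axis, with 95% confidence intervals) for each gene, over all loops (black) and over loops on shared anchors (orange), with the median of all genes dashed. Stra6 is higher and Dhrs3 and Crabp2 are lower in both fits, Cyp26a1 and Cyp26c1 move from near 0 to 1.78 and 1.92 on shared anchors, and Aldh1a2 and Crabp1 have no shared-anchor test. Under library size alone Dhrs3 turns to 0.21.

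Over all loops of the 9 genes, 29 could be tested, of which 18 were higher (38.1% of all loops tested) and 5 lower (22.4%) in cluster2. The median log2 fold change of these loops was 2.01, and that of all loops tested was 0.78. The 11 tested Stra6 loops are among these 29. Loops with few bulk read pairs could be tested only where cluster2 held many, which favours higher calls. Of the 5 lower loops, 3 have an anchor without any cluster2 loop. On shared anchors, where those 3 loops drop out, 26 loops were tested, with 19 higher (52.1% of all loops on shared anchors) and none lower (11.5% of all). Of 17 anchors tested at the genes, 5 were higher (10.5% of all anchors) and 6 lower (75.5% of all anchors), 4 of the latter without a cluster2 loop. On shared anchors 6 of 11 were higher (32.5% of all) and 1, the Crabp2 promoter anchor, was lower (15.2% of all).

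**Figure D4:**
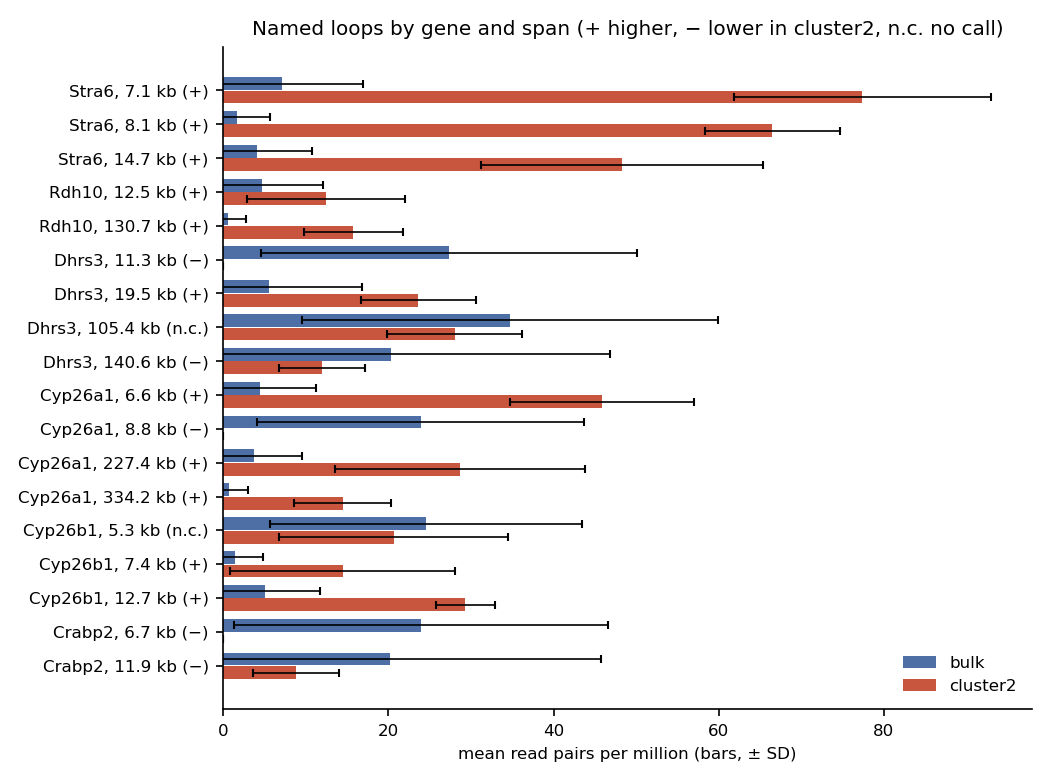
Mean CPM (bars, with SD) of the named loops in bulk (blue) and cluster2 (red), by gene and span. Loops marked + were called higher, those marked − lower and those marked n.c. neither. The Stra6 loop of 8119 bp has a mean of 1.65 in bulk and 66.5 in cluster2. Loops without a red bar have no cluster2 read pair. Under library size alone the lower Dhrs3 and Crabp2 loops that hold cluster2 read pairs change sign.

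The reach of the loops differed between groups as well. Of the read pairs of the 9 genes, 50.9% ± 4.00 (SD, n = 12) were in loops over 100 kb in bulk and 32.5% ± 2.19 (n = 5) in cluster2, a difference of -18.3 percentage points (two-sided exact permutation test, p = 0.000162, the smallest that 6188 splits can give). Over all genes the shares were 54.3% and 45.2%. On shared anchors the 9 genes had 36.6% ± 11.9 in bulk, and the difference of -4.01 points did not pass (exact permutation p = 0.484). Read pairs whose partner lay within 5 kb of another gene's TSS made up 22.9% ± 5.27 in bulk and 50.8% ± 4.11 in cluster2 (exact permutation p = 0.000162), beside 22.9% and 66.9% over all genes. On shared anchors this difference was 5.65 points (exact permutation p = 0.461). Adjusted over the 2 shares, both p-values stayed at 0.000162. Stra6 had 757 of the 1422 cluster2 read pairs of the 9 genes and the shortest median span there (16052 bp). With Stra6 left out, an alternative chosen after the data were seen, 55.7% ± 3.92 of the bulk and 55.6% ± 3.89 of the cluster2 read pairs of the other genes were in loops over 100 kb (difference -0.15 points, exact permutation p = 0.945). The difference in reach passed the test only with Stra6 included. The partner share of those 8 genes was 18.3% ± 3.52 and 34.9% ± 7.10 (exact permutation p = 0.000323).

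**Figure D5:**
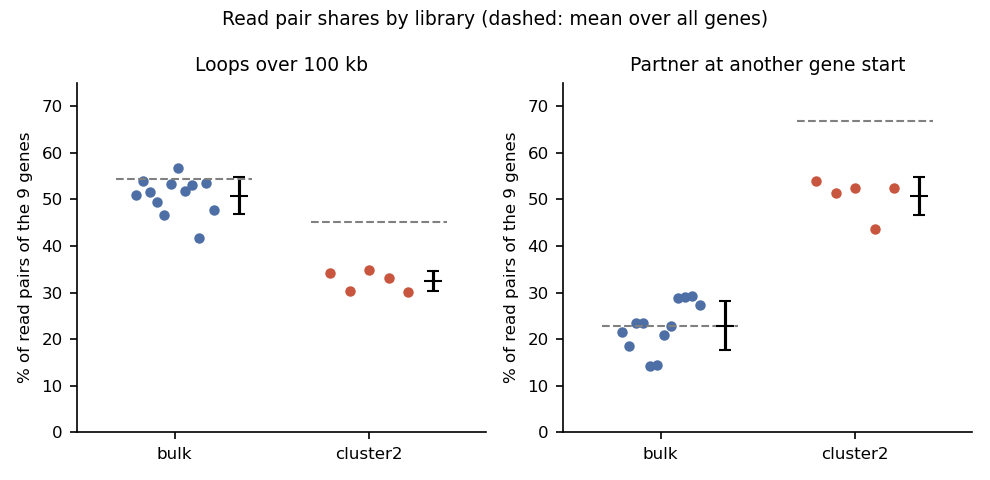
Percent of the read pairs of the 9 genes in loops over 100 kb (left) and with a partner at another gene's start (right), for each of the 12 bulk (blue) and 5 cluster2 (red) libraries, with mean and SD in black and the mean over all genes dashed. The groups do not overlap in either share, and cluster2 lies below the all-gene mean of cluster2 in both. Without Stra6 the difference on the left is -0.15 points.

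Partners of 5 genes, Dhrs3, Rdh10, Crabp2, Cyp26a1 and Cyp26c1, were mostly downstream in the direction of transcription. At least 79.5% of their bulk read pairs past 20 kb were downstream, beside 52.6% over all genes, and 7.05% of 11692 genes with at least 20 such read pairs reached that share. These genes were singled out after their values were seen, and 2 of them share an anchor.

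Of 38 other genes of the retinoid pathway (further dehydrogenases, retinol carriers, receptors and their cofactors), 33 were tested, 6 were higher and 17 lower in cluster2, beside the 20% and 40.9% of all genes. Their median log2 fold change was -0.93, against -0.43 over all genes. Rarb, an RA receptor and RA target gene, had 346 read pairs in bulk and none in cluster2, where none of its 4 anchors has a loop. Rxrg, a partner receptor, had 145 and 0, and none of its 5 anchors has a cluster2 loop. The 3 higher genes with the smallest p were Rxrb, another partner receptor (242 and 646 read pairs, 1.58 ± 0.19), Stra8, an RA-induced gene of germ cell development (32 and 109, 1.86 ± 0.31) and Adh1, an alcohol dehydrogenase that oxidizes retinol (46 and 124, 1.45 ± 0.35). On shared anchors 21 were tested, with 5 higher and 4 lower, beside 21.6% and 11% of all 9749 genes tested there.

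Stra6 had the most read pairs of the 9 genes. After group means were taken off, the genes whose values followed it most closely over the 17 libraries were Cma2 (Pearson r = 0.89), Iqgap1 (0.88) and Gm5151 (0.87), of 13673 genes compared. These had 25, 40 and 144 read pairs in all, share library depth with Stra6, and at such counts the correlations are given as a description only.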

How the data were processed

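H3K27ac HiChIP loops were taken from 17 libraries. The authors aligned read pairs with HiC-Pro to mm9 and called anchors and loops with hichipper. The deposited values are counts, the read pairs joining each pair of anchors in 1 library, without normalization. Which libraries gave each group its anchors is not given in the sources used here. Overlapping anchors were joined, 700 read pairs falling inside 1 joined anchor were dropped, and counts were summed per loop, anchor and gene (GENCODE protein-coding TSSs, 5 kb). All 216081 anchors started at a GATC of the mm9 genome.

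The minimum for a test was 20 read pairs, spread over 5 or more libraries. Tests used edgeR 4.0.16 under R 4.3.3 (TMM, quasi-likelihood, Benjamini-Hochberg over all features, adjusted p under 0.05), after tests on simulated data. CPM values are TMM-scaled. Shares were compared in Python 3.11.15 by exact permutation over all splits into 12 and 5. The alternatives included DESeq2 1.42.0. P-values measure the spread between libraries, which the labels do not tie to separate cultures and which may be technical. All pairs of libraries of a group differed by more than sampling noise.

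Named loops are, per gene, the 2 with the largest mean and up to 3 called in each direction. Members, lists and motifs were chosen with earlier results of these data known. A pathway gene that the naming rule selects is not reported here.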

Additional observations from a re-analysis of the deposited data

Results flagged for a closer look

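Of 28 sets of 5 cluster2 values checked for a library far from the others, 1 stood out, and chance alone flags about 1 in 20. The share of read pairs of the 9 genes with a partner at another gene's start was 43.6% in cluster2 replicate 4 and 51.4% to 54.0% in the other cluster2 libraries, a gap of 0.756 of the whole range. That library had 172 read pairs at the 9 genes. Its difference was not tested further.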

How the results depend on the processing

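Counts of calls depended on the scaling and on the anchors used. Genes called higher, 1 with all anchors, were 5 under library size alone, 4 on shared anchors, and 2 with DESeq2, thinning to the smallest library, windows of 2.5 or 10 kb, or the 10 libraries numbered 1 to 5 of both groups (chosen after the data were seen). Leaving out 1 library gave 1 to 2, the added gene being Cyp26c1 without bulk replicate 8. Genes called lower, 3, were 0 under library size alone, 2 on shared anchors and 4 with spans of at least 20 kb. They were also 4 with the 10 libraries, and 3 without any 1 library. Loops called higher, 18, were 6 with at least 50 read pairs and 7 with spans of at least 20 kb, and 12 to 18 with a library left out (12 without cluster2 replicate 1 or 5). Loops called lower, 5, were 3 with DESeq2, with library size alone and with the 10 libraries, 1 with 50 read pairs, and 0 with no filter, with spans of at least 20 kb, with thinning and on shared anchors. They were 3 to 5 with a library left out (3 without cluster2 replicate 1). Anchors called higher, 5, were 10 under library size alone and 3 with spans of at least 20 kb. Anchors called lower, 6, were 10 with no filter, 2 with thinning and 1 on shared anchors. Pathway genes called higher, 6, were 17 under library size alone. Those called lower, 17, were 11 under library size alone, with 50 read pairs and with thinning, 10 with the 10 libraries and 4 on shared anchors. The share differences fell to -4.01 (over 100 kb) and 5.65 points (promoter partner) on shared anchors, and the first to -0.15 points with Stra6 left out. Fewer loops enter those fits, and the cause was not tested for the rest.

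Log2 fold changes that changed sign under library size alone were Rdh10 (1.6), Aldh1a2 (0.88), Dhrs3 (0.21), Cyp26b1 (1.58), the Crabp2 promoter loop to 87761480 (0.90), the Dhrs3 loops to 144587684 (1.80) and 144623178 (1.14), and the Cyp26b1 loop between its start sites (2.01). With thinning, Rdh10 was 0.070, Cyp26b1 0.043, and the loops to 144587684 and between the Cyp26b1 starts 0.54 and 0.93. With no filter, which changes the scaling, the loops to 144587684, 144623178 and between the Cyp26b1 starts were 0.74, 0.11 and 0.99. Rdh10 was 1.14 on shared anchors. Cyp26a1 was -0.020 with at least 50 read pairs, -0.17 with spans of at least 20 kb, and -0.079 to 0.19 with a library left out. The direction of Stra6, Crabp1, Crabp2 and Cyp26c1 held in every setting in which they were tested.

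The replicate numbers did not pair the samples: same-numbered libraries had correlations of -0.014 to 0.0049 of their deviations from the group means. With the replicate number as a block over 10 libraries, 8 loops were higher and 2 lower, and 10 pathway genes were lower.

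At 8 to 757 cluster2 read pairs per gene, single loops rest on few read pairs, and 29 of 754 reached the minimum for a test.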
